A study of Mus musculus with 24 samples.

Results

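The 37 genes of the mouse mitochondrial genome were followed in plantaris, a fast hindlimb muscle. They were taken as every row of the deposited count table whose gene symbol starts with mt-. These were 37 of 47643 rows, made up of 13 messenger RNAs (mRNAs), 22 transfer RNAs (tRNAs) and 2 ribosomal RNAs (rRNAs). The 3 classes were treated apart. All samples came from wild-type C57BL/6 mice, 11 after breathing normal air and 13 after 16 weeks of tobacco smoke, and the labels name no other allele, agent or age. The series title concerns chronic activity of the aryl hydrocarbon receptor in muscle, and the comparison asks which transcripts differ after smoke exposure. RNA was sequenced by a poly(A)-primed 3′-end method, which reads mainly the end of a transcript that carries a poly(A) tail. The labels do not say whether each sample is a separate animal, so p-values measure the spread between these samples.

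The mitochondrial genome is a small circle in many copies per cell, and both of its strands are copied into long precursors. tRNA genes lie between most of the mRNA and rRNA genes, and enzymes cut the tRNAs out and so release the others. The mRNAs encode core subunits of the respiratory chain and of ATP synthase, and most mRNAs and the rRNAs gain a short poly(A) tail. A mature tRNA ends in CCA and has no lasting poly(A) tail, so reads in a tRNA row need not come from the mature tRNA.

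Not every row held usable counts. Reads were found in 27 of the 37 rows, and 10 rows were at 0 in all 24 samples: mt-Co2, mt-Atp8, mt-Atp6, mt-Co3, mt-Nd4l, mt-Ts1, mt-Td, mt-Tk, mt-Tg and mt-Th. A count of 0 allows up to 3 counts per library, or 0.662 to 1.19 CPM (read counts scaled to a common library total, here the raw total), for counting error only. A row at 0 in every sample of a group allows 0.0773 CPM in air and 0.0667 CPM in smoke on the same scale. Genes of cytochrome c oxidase (mt-Co2, mt-Co3) and ATP synthase (mt-Atp6, mt-Atp8) are used by every muscle fibre, so these rows are reported as listed at 0 and not as unexpressed. Another 9 rows, all tRNAs, had reads but did not pass the low-count filter (edgeR filterByExpr with a minimum count of 10). The rows that passed were 8 mRNAs, 8 tRNAs and both rRNAs, 18 in all.

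Most of the empty rows lay next to each other. When the mitochondrial genes were aligned to all annotated nuclear transcripts, 8 pseudogenes matched at 97% identity or more over at least 100 bases. Of these, 7 lie side by side on chromosome 1 (24611535 to 24616197, GRCm38). Their matches start at mitochondrial position 6390, inside mt-Co1, and end at position 11042, inside mt-Nd4. The sequence between the pseudogenes was not compared. The stretch from 6390 to 11042 touches 13 mitochondrial genes, and 9 of them were at 0, against 1 of the 24 genes outside it (mt-Th). Of these 9, only mt-Co2, mt-Atp6, mt-Co3 and mt-Nd4l had an aligned copy. The copies of mt-Co2 (Gm28661), mt-Atp6 (Gm10925), mt-Co3 (Gm28437) and mt-Nd4l (Gm10222) had no mismatch over 681, 678, 783 and 294 bases. The 7 copies had 7 reads between them over 24 samples, so that the reads of the empty rows did not stand under these names either. How reads with several alignments were counted is not given in the sources used here, and the part of the copies in the empty rows was not tested. mt-Atp8 and the tRNAs of the stretch had no aligned copy of their own. The end of mt-Atp8, from position 7927 to 7969, is shared with mt-Atp6 and so lies in Gm10925.

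The last 80 bases of mt-Co3 (mitochondrial positions 9311 to 9390) and the last 79 bases of its nuclear copy are printed here because they are the same up to the final base, in capitals, which the copy lacks. All sequences run 5′ to 3′ and are GENCODE M21 transcripts (GRCm38).
mt-Co3: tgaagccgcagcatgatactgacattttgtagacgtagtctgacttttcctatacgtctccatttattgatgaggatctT
Gm28437: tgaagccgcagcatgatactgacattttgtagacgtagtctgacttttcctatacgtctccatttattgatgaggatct
The start of mt-Nd3 (positions 9459 to 9498) and of its copy Gm28438 are printed because they hold the only mismatch in 345 aligned bases, T3C counted from the first base of the gene, in capitals.
mt-Nd3: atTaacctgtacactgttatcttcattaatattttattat
Gm28438: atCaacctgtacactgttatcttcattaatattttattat
mt-Nd3 was the only mRNA row lying whole inside the stretch that had reads, with 792 over 24 samples, and mt-Tr was the only tRNA row, with 192. Of the 50-base windows of mt-Nd3, 98.0% also occur exactly in a nuclear transcript. For mt-Co1, a catalytic subunit of cytochrome c oxidase, the share was 51.1% over the gene and 100% over its last 200 bases. The last 479 bases of mt-Co1, after its mismatch A1066T, are those of Gm29216, while the row held 105184 reads. For mt-Nd4, a subunit of complex I, the share was 62.2% over the gene and 0% over its last 200 bases. A second, more distant copy of mt-Co1, Gm13340 on chromosome 2 (97.6% identity, 37 mismatches), had 118 reads and at most 11 in a sample. Levels of mt-Nd3, mt-Co1 and mt-Nd4 are therefore uncertain as amounts.

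**Figure D1:**
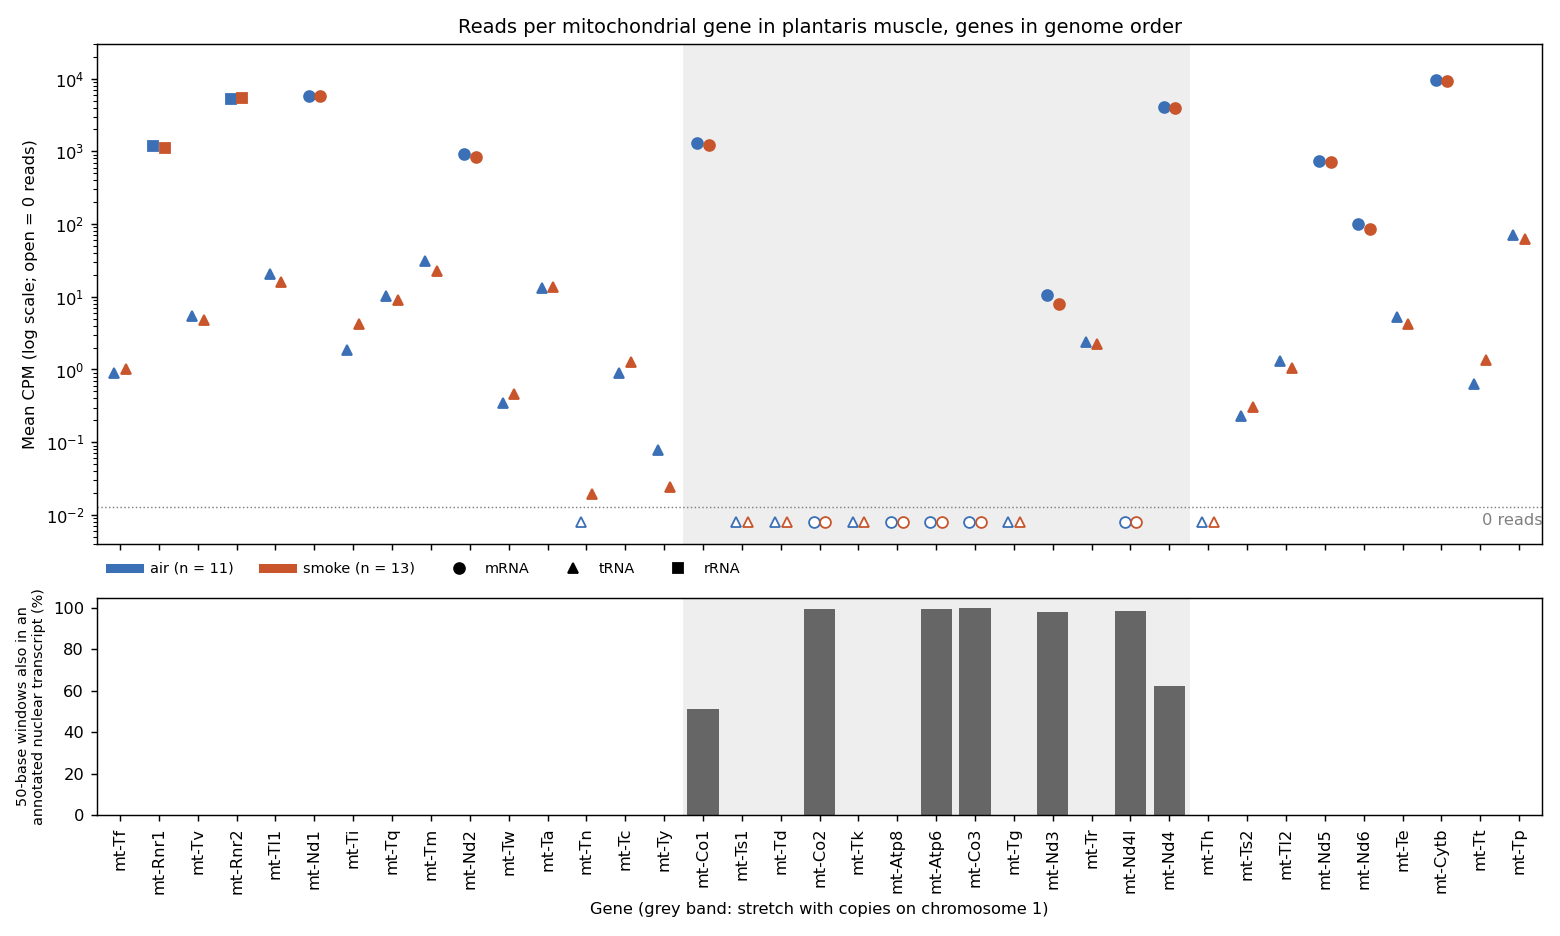
Mean CPM of each mitochondrial gene in air (blue, n = 11) and smoke (orange, n = 13) in genome order on a log scale (top), and the share of its 50-base windows found exactly in an annotated nuclear transcript in percent (bottom). Open symbols are genes with 0 reads, and 9 of the 10 genes without reads in either group lie in the grey stretch. It runs from the first to the last match with pseudogenes on chromosome 1, and not every gene in it had an aligned copy.

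Mitochondrial rows took 2.91 ± 0.424% of counts in air (SD, n = 11) and 2.84 ± 0.269% in smoke (SD, n = 13). mRNA rows took 2.25 ± 0.358% in air and 2.19 ± 0.225% in smoke (SD), rRNA rows 0.642 ± 0.118% and 0.640 ± 0.0851%, and tRNA rows 0.0163 ± 0.00273% and 0.0144 ± 0.00183%. These sums are given without a test, and in whole muscle fewer cells of a type and less RNA per cell cannot be told apart. Of 2411897 mitochondrial reads, 89.6% fell on mt-Cytb, mt-Nd1, mt-Rnr2, mt-Nd4 and mt-Co1. mt-Cytb, the cytochrome b of complex III, alone held 32.9% of them, with 31.1 to 34.9% in single samples. The 9 genes on the minus strand held 0.643%, and mt-Nd6, the only mRNA among them, had 7701 reads. A tRNA from that strand, mt-Tp, had 5417 reads and so held most of the 7806 reads in minus-strand tRNA rows. The 14 plus-strand tRNA rows had 4914 reads together. Strand use in counting was not stated, so reads from a gene and from the opposite strand cannot be told apart.

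Per length, the order of the rows did not follow the classes. In air, mt-Cytb stood at 8382 CPM per kilobase, mt-Nd1 at 6034, mt-Rnr2 at 3318 and mt-Nd4 at 2925 CPM per kilobase. The next were mt-Rnr1 at 1246 and mt-Tp at 1047 CPM per kilobase, so that a single tRNA row stood above the mRNA rows mt-Nd2 (881), mt-Co1 (852), mt-Nd5 (401), mt-Nd6 (194) and mt-Nd3 (30.6 CPM per kilobase). With reads taken near transcript ends, division by length raises short genes, and these levels order the rows of this table only.

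Of the 8 tested mRNA rows 0 were called, a call being an adjusted p under 0.05 for smoke against air (edgeR quasi-likelihood, Benjamini-Hochberg over all genes), while 195 of 10159 genes, 1.92%, were. At an unadjusted p under 0.05 there was 1, mt-Co1, and DESeq2 also called 0. The median log2 fold change of the 8 was −0.087 and 7 were negative, beside a median of 0.0066 over all tested genes.

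Among the subunits of complex I, which takes electrons from NADH, mt-Nd1 ran from 4220 to 6811 CPM in air (median 5691) and from 5149 to 6990 CPM in smoke (median 5775). The ranges of the groups overlapped, with a log2 difference of 0.021 ± 0.062 (SE, adjusted p = 0.921 by edgeR) and an interval of 2 SE from −0.10 to 0.14. mt-Nd4 ran from 2756 to 4770 CPM in air (median 4167) and from 3166 to 4661 CPM in smoke (median 3953). Its log2 difference between the groups was −0.025 ± 0.066 (SE, adjusted p = 0.908 by edgeR), and 0.0038 when scaled to the mitochondrial mRNA total. The lowest air samples of both rows lay below every smoke sample, and the highest samples were alike.

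mt-Nd2 ran from 492 to 1097 CPM in air (median 977) and from 610 to 1181 CPM after smoke (median 856), with a log2 difference of −0.13 ± 0.097 (SE, adjusted p = 0.557 by edgeR). mt-Nd5 ran from 597 to 826 CPM in air (median 761) and from 575 to 839 CPM after smoke (median 717), with a log2 difference of −0.057 ± 0.058 (SE, adjusted p = 0.700 by edgeR). For both, most smoke samples were under the air mean, 11 of 13 for mt-Nd2 and 12 of 13 for mt-Nd5, and the ranges overlapped almost fully. mt-Nd6, the complex I subunit encoded on the minus strand, ran from 63.3 to 121 CPM in air (median 109) and from 48.5 to 129 CPM in smoke (median 83.9). Its log2 difference between the groups was −0.22 ± 0.12 (SE, adjusted p = 0.401 by edgeR). The gene overlaps the end of mt-Nd5 on the opposite strand.

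mt-Nd3 was the most variable mRNA row. It ran from 0.944 to 25.2 CPM in air (median 9.73) and from 1.10 to 19.4 CPM in smoke (median 7.54), a 26.7-fold range over all samples. The highest sample of the other mRNA rows and the rRNA rows was 1.46 to 2.67 times the lowest. The coefficient of variation of mt-Nd3 was 79.1% in air and 60.03% in smoke, where counting alone would give 15.9% and 19.1%. Its log2 fold change of −0.46 had an SE of 0.34 (edgeR adjusted p = 0.567).

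mt-Cytb ran from 6665 to 10903 CPM in air (median 9625) and from 7806 to 11106 CPM in smoke (median 9446). The log2 difference was −0.030 ± 0.064 (SE, adjusted p = 0.880 by edgeR), with an interval of 2 SE from −0.16 to 0.097. mt-Co1 ran from 1172 to 1459 CPM in air (median 1319) and from 978 to 1300 CPM in smoke (median 1227). All 13 smoke samples were below the air mean and 2 were below the lowest air sample. The mt-Co1 row had a log2 fold change of −0.12 (SE 0.047, unadjusted p = 0.0186) and did not pass over all genes (edgeR adjusted p = 0.205).

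The rRNAs form the core of the mitochondrial ribosome, mt-Rnr1 in the small and mt-Rnr2 in the large subunit. Neither of the 2 rows was called, against 1.92% of all tested genes, and neither had an unadjusted p under 0.05 or was called by DESeq2. mt-Rnr1 ran from 867 to 1701 CPM in air (median 1143) and from 877 to 1351 CPM after smoke (median 1080), with a log2 difference of −0.10 ± 0.077 (SE, adjusted p = 0.564 by edgeR). mt-Rnr2 ran from 3944 to 7178 CPM in air (median 5042) and from 4337 to 6668 CPM after smoke (median 5333), with a log2 difference of 0.027 ± 0.079 (SE, adjusted p = 0.918 by edgeR). The smoke samples of both lay within the span of the air samples.

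**Figure D2:**
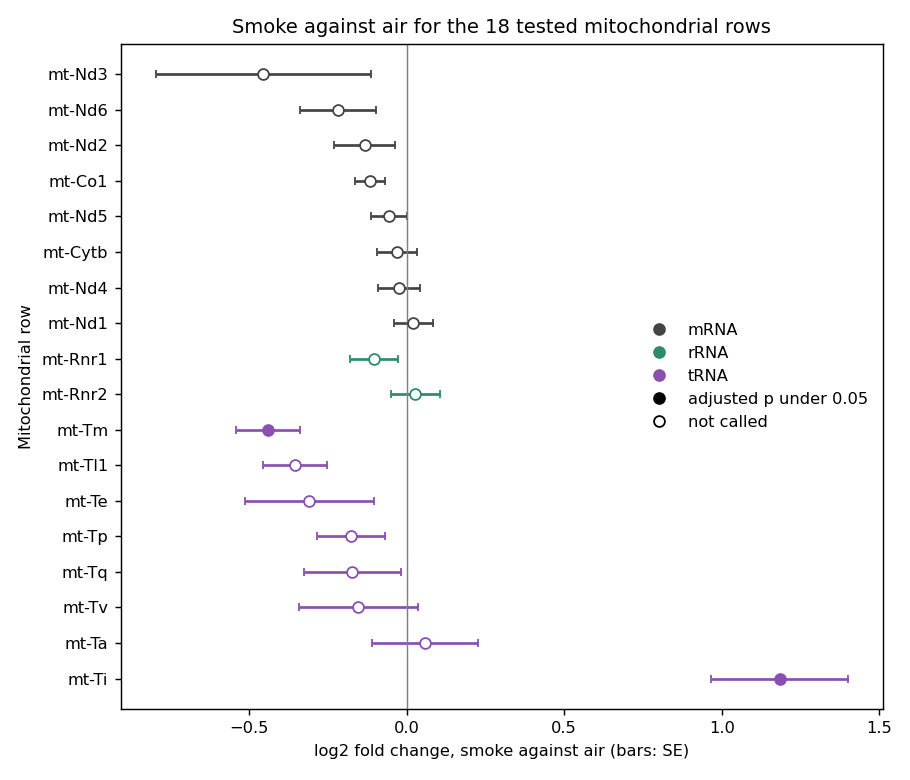
Log2 fold change of smoke against air (x axis) for the 18 tested mitochondrial rows, with bars of 1 SE. Filled points passed an adjusted p under 0.05: mt-Ti at 1.18 and mt-Tm at −0.44, both tRNA rows.

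The tRNA rows held the only calls, with mt-Ti higher and mt-Tm lower in smoke among 8 tested rows. Over all tested genes 0.728% were called higher and 1.19% lower. The call of mt-Ti is not read against that share, because mt-Ti met the low-count filter through the smoke samples: 13 of 13 smoke samples but 3 of 11 air samples had 10 reads or more. As a description of the rows that passed the filter, the median log2 fold change of the 8 was −0.17, and 6 were negative. The called rows are neighbours, separated by mt-Tq on the opposite strand, in the cluster of 3 tRNA genes between mt-Nd1 and mt-Nd2. Their gene sequences are printed with the end of mt-Nd1 to show what the counting could assign. Capitals in mt-Ti mark the 2 bases shared with the end of mt-Nd1 and the 3 bases shared with mt-Tq, capitals in mt-Nd1 mark the same 2 bases, and capitals in mt-Tm mark the methionine anticodon.
mt-Nd1, last 60 bases (3648 to 3707): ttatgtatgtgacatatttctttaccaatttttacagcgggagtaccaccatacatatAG
mt-Ti (3706 to 3774, plus strand): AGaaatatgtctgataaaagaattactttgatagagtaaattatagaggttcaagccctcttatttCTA
mt-Tm (3845 to 3913, plus strand): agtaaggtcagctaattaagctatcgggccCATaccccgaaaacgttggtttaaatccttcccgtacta
Since each tRNA gene is 59 to 75 bases long, a read that starts in such a row can run into its neighbour.

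The row of mt-Ti, the isoleucine tRNA, had 3, 7, 4, 7, 4, 10, 10, 5, 12, 5 and 4 reads in air replicates 1 to 11. It had 17, 10, 13, 12, 19, 13, 13, 15, 16, 10, 14, 15 and 20 reads in smoke replicates 1 to 13. All 13 smoke samples were above the air mean and 11 of them above the highest air sample, and the groups overlapped at the edge, with air up to 3.46 CPM and smoke from 2.88 CPM. mt-Ti rose from 1.87 ± 0.891 CPM in air (SD, n = 11) to 4.29 ± 1.18 CPM in smoke (SD, n = 13), a log2 difference of 1.18 ± 0.22 (SE, adjusted p = 0.00230 by edgeR). With no low-count filter mt-Ti had 1.18 (edgeR adjusted p = 0.00313), and with a minimum count of 20 or after thinning to the smallest library it was not tested. DESeq2 gave it an unadjusted p of 6.18e-07 and no adjusted p.

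mt-Ti overlaps the end of mt-Nd1, whose level is given above. Per 1000 reads of mt-Nd1 there were 0.328 ± 0.165 reads of mt-Ti in air (SD, n = 11) and 0.731 ± 0.173 in smoke (SD, n = 13). The log2 ratio was higher in smoke by 1.14 (SE 0.21). This ratio was chosen with the result on mt-Ti known and restates it on another scale, so it is given without a p-value.

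mt-Tm, the methionine tRNA, ran from 21.6 to 48.2 CPM in air (median 29.2) and from 19.98 to 25.7 CPM in smoke (median 22.4). Smoke samples lay close together at the low end of the air range, 13 of 13 of them below the air mean, and 8 of 11 air samples stood above the highest smoke sample. The coefficient of variation in smoke was 7.42%, below the 11.3% that counting alone would give, so the closeness is not read as a trait of smoke. In air it was 26.1%, against 9.57% from counting. The highest air samples were replicates 4, 5 and 3, with 48.2, 39.6 and 37.8 CPM. mt-Tm fell from 31.0 ± 8.08 CPM in air (SD, n = 11) to 22.8 ± 1.69 CPM in smoke (SD, n = 13), a log2 difference of −0.44 ± 0.10 (SE, adjusted p = 0.0165 by edgeR). Scaled to the mitochondrial mRNA total in place of all counts, mt-Tm had a log2 fold change of −0.41 and was not called (edgeR adjusted p = 0.0973, range over 35 alternatives 0.00601 to 0.0973).

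mt-Tl1, a leucine tRNA between mt-Rnr2 and mt-Nd1, came close to the threshold. It ran from 14.1 to 23.9 CPM in air (median 21.1) and from 11.5 to 19.4 CPM in smoke (median 15.8). All 13 smoke samples were below the air mean, and 8 of 11 air samples stood above the highest smoke sample. Its log2 fold change of −0.36 (SE 0.10) did not pass (edgeR adjusted p = 0.0560), while DESeq2 called it at −0.36 (adjusted p = 0.0305, range over 35 alternatives 0.0238 to 0.257). It also passed in 6 of 24 fits that left out a sample: air replicate 2, 8 or 10, or smoke replicate 4, 10 or 11. Per 1000 reads of mt-Rnr2 there were 3.95 ± 0.864 reads of mt-Tl1 in air and 3.03 ± 0.568 in smoke (SD), given without a test.

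The other 5 tested tRNA rows did not pass. mt-Tp, the proline tRNA and the deepest tRNA row, ran from 46.2 to 102 CPM in air and from 41.8 to 74.7 CPM after smoke, with a log2 difference of −0.18 ± 0.11 (SE, adjusted p = 0.465 by edgeR). mt-Ta, the alanine tRNA, had 28.0 CPM in air replicate 5 against at most 17.3 CPM in the other air samples, and its log2 difference between the groups was 0.058 ± 0.17 (SE, adjusted p = 0.917 by edgeR). mt-Tq (glutamine), mt-Te (glutamate) and mt-Tv (valine) had log2 fold changes of −0.17, −0.31 and −0.15 with edgeR adjusted p between 0.503 and 0.761, and their groups overlapped. Of the 9 counted rows under the filter, 7 had reads in at least 12 samples, and a two-sided permutation of CPM values passed for 0 of them (smallest p = 0.0997 for mt-Tt, Benjamini-Hochberg adjusted p = 0.637 over 7 rows). mt-Tt, the threonine tRNA, had 25 reads in air and 61 in smoke, of which smoke replicate 13 held 17. Over 24 samples there were 79 reads for mt-Tf (phenylalanine), 33 for mt-Tw (tryptophan), 89 for mt-Tc (cysteine), 22 for mt-Ts2 (serine) and 99 for mt-Tl2 (leucine), with the groups overlapping in each. The remaining rows, mt-Tn (asparagine) and mt-Ty (tyrosine), had 1 and 4 reads in all.

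**Figure D3:**
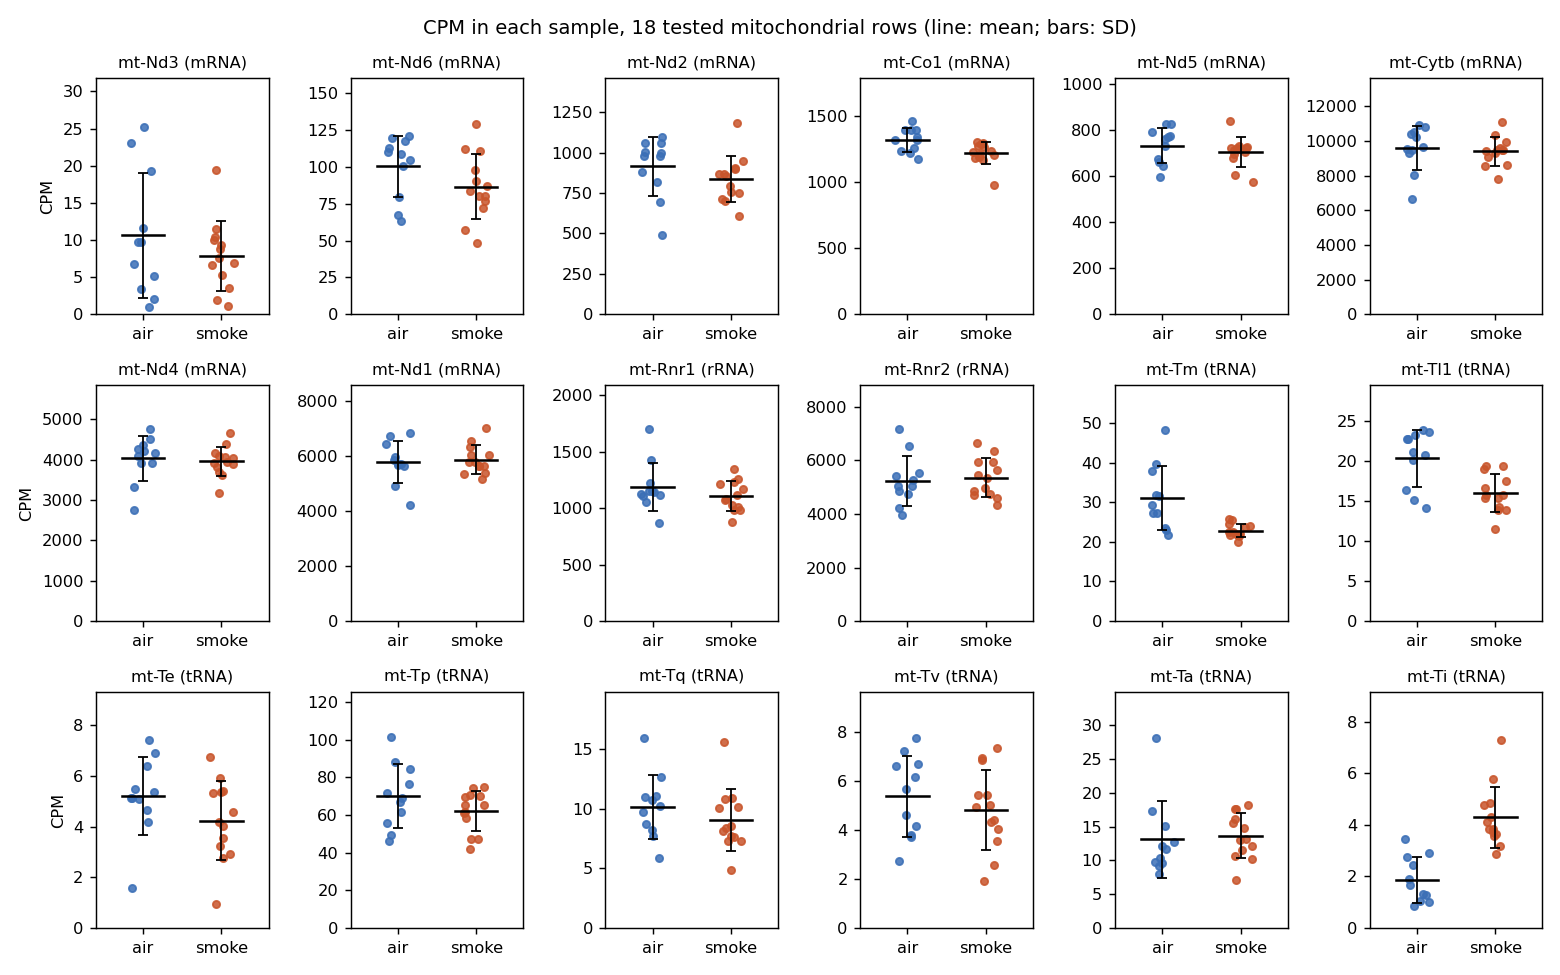
CPM of each sample for the 18 tested mitochondrial rows, with a panel per row, air in blue (n = 11), smoke in orange (n = 13), the mean as a line and the SD as bars. Smoke samples stand above most air samples for mt-Ti and at the low end of the air range for mt-Tm, and in every panel the groups overlap.

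Some rows varied together, and not only neighbours. The distant rows mt-Nd1, mt-Nd4 and mt-Cytb all had their lowest value in air replicate 11 (4220, 2756 and 6665 CPM), given without a test. The rRNA rows, separated by mt-Tv alone, were correlated in air (Pearson's r = 0.87, permutation p = 0.0011, Spearman's rho = 0.92, permutation p = 0.00017, n = 11, on log2(CPM + 1) as for all pairs). They were also correlated in smoke (r = 0.89, permutation p = 7e-05, rho = 0.88, permutation p = 0.00016, n = 13). With the 2 most extreme mt-Rnr1 samples of each group left out, r was 0.78 in air and 0.90 in smoke. For mt-Ti with mt-Nd1 no relation passed (r = 0.059 in air and 0.33 in smoke, permutation p = 0.866 and 0.275, rho = 0.12 and 0.044, permutation p = 0.734 and 0.892), and r without 2 samples was −0.32 and 0.12. The coefficient of variation of mt-Ti was 47.7% in air and 27.5% in smoke, where counting alone would give 39.4% and 26.4%. With so little spread beyond counting, this pair could hardly show a relation, and nothing is concluded from it.

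Over these 4 relations the Benjamini-Hochberg adjusted permutation p of r was 0.0022 in air and 0.00028 in smoke for the rRNA rows, and 0.866 and 0.367 for mt-Nd1 with mt-Ti. For rho the adjusted values were 0.00034 in both groups for the rRNA rows and 0.892 in both for mt-Nd1 with mt-Ti.

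The pair of mt-Nd2 and mt-Nd3 was picked after the values were seen and is given as a description, with no p. In air r was 0.75 and rho 0.75 (n = 11), and r fell to 0.47 when the 2 most extreme mt-Nd2 samples were left out, so that it rested in part on them. In smoke r was 0.66 and rho 0.69 (n = 13), and r was 0.63 without 2 samples. Air replicate 11 had the lowest mt-Nd2 and mt-Nd3 of all samples, at 492 and 0.944 CPM. RNA depth and composition of the library are shared by all rows of a sample.

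**Figure D4:**
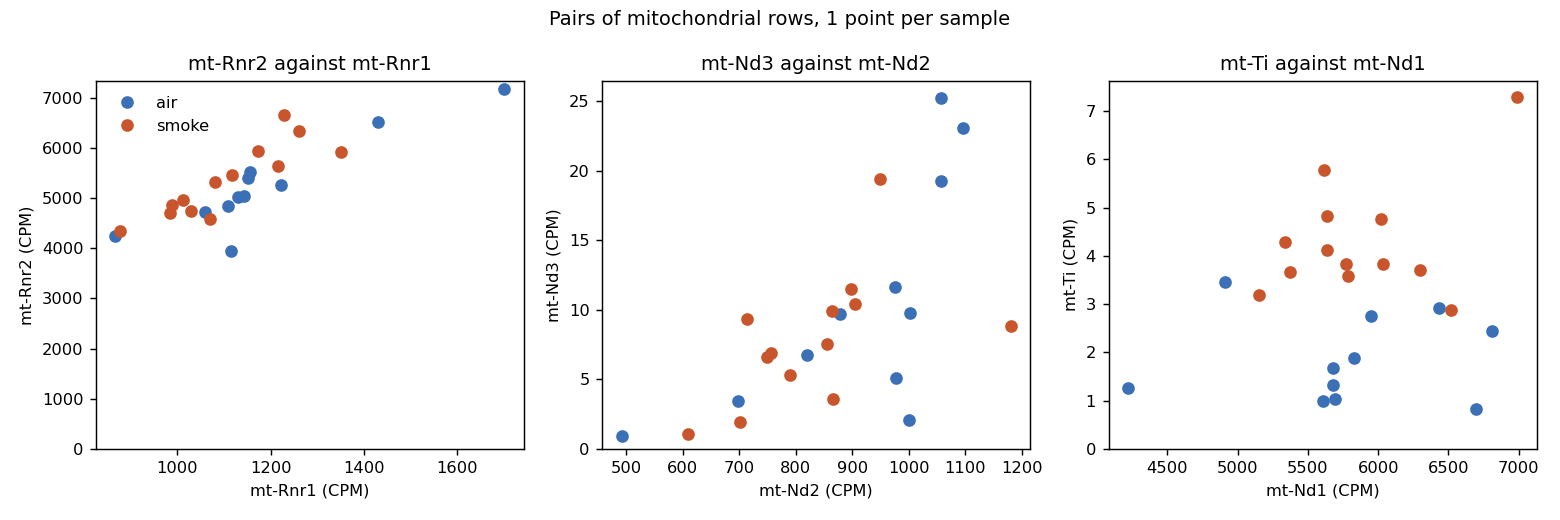
CPM of 3 pairs of mitochondrial rows with a point per sample, air in blue (n = 11) and smoke in orange (n = 13). mt-Rnr2 follows mt-Rnr1 (r = 0.87 in air, 0.89 in smoke), mt-Nd3 is plotted against mt-Nd2 as a pair picked after the values were seen (0.75 and 0.66), and for mt-Ti with mt-Nd1 no relation passed (0.059 and 0.33). mt-Ti had 3 to 20 reads per sample, so a relation to mt-Nd1 could hardly be seen. The x axes do not start at 0.

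The nuclear genes that make and process these transcripts were looked at in 3 lists. Over all tested genes edgeR called 1.92% and DESeq2 called 323 of 10159. In transcription and replication of mitochondrial DNA, 12 of 18 listed genes were tested and 0 were called (1 at an unadjusted p under 0.05, DESeq2 0). In RNA processing, polyadenylation and turnover, 20 of 23 were tested and 0 called (5 at an unadjusted p under 0.05, DESeq2 0). In tRNA modification and charging, 29 of 34 were tested and edgeR called 0 (3 at an unadjusted p under 0.05), while DESeq2 called 1, the threonyl-tRNA synthetase gene Tars2, at −0.43 (adjusted p = 0.0412). The medians of the log2 fold changes were −0.026, −0.071 and −0.024, beside 0.0066 over all tested genes. Together 9 of 61 tested genes had an unadjusted p under 0.05, 7 lower and 2 higher in smoke, where 1575 of 10159 did over the table.

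Tfam, which packages mitochondrial DNA and starts its transcription, had 31.6 ± 7.75 CPM in air against 32.4 ± 6.64 CPM after smoke (SD; log2 fold change 0.030, SE 0.12, edgeR adjusted p = 0.938). Polrmt, the mitochondrial RNA polymerase, was at 10.0 ± 2.54 and 8.71 ± 2.23 CPM (−0.20, SE 0.15, edgeR adjusted p = 0.576). Lrpprc, which with Slirp binds and stabilises mitochondrial mRNAs, was at 62.6 ± 11.9 and 55.1 ± 7.27 CPM (−0.18, SE 0.089, edgeR adjusted p = 0.309), and its smoke level was under the air mean in 12 of 13. Slirp was at 146 ± 16.2 and 140 ± 12.2 CPM (−0.056, SE 0.060, edgeR adjusted p = 0.716). Iars2, the enzyme that loads isoleucine onto mt-Ti, was at 30.2 ± 5.94 and 29.4 ± 4.57 CPM (−0.038, SE 0.099, edgeR adjusted p = 0.908).

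Libraries held 2515697 to 4528845 counts. The most abundant row, Gm42418, which overlaps ribosomal RNA sequence, took 9.62 to 17.8% of them. Of 6 muscle fibre markers, with Acta1, Ckm and Myh4 among the 10 most abundant rows, 0 were called (1 at an unadjusted p under 0.05). All 5 erythroid markers had negative log2 fold changes, and 3 were called lower in smoke (Hbb-bs, Hbb-bt and Hba-a2). Alas2 at −0.75 (edgeR adjusted p = 0.0672) and Hba-a1 at −0.14 (edgeR adjusted p = 0.548) were not called. The summed level of the 5 was 486 to 1444 CPM in air and 369 to 883 CPM in smoke. Over all tested genes 1.92% were called, 1.19% as lower. No erythroid marker was at 0 in total. The part of other cell types in the changes of mt-Ti and mt-Tm was not tested. No marker of endothelium, adipocytes or macrophages was called (3, 3 and 1 tested).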

How the data were processed

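RNA of whole plantaris muscle was made into Lexogen QuantSeq 3′ forward libraries and sequenced on a HiSeq instrument, per the labels' protocols. The deposited table holds unnormalized read counts for 24 samples, with 47643 Ensembl gene IDs as rows. The submitters' processing notes name STAR, DESeq2 and the build mm9, with no role. The counting tool, annotation, strand use and treatment of reads with several alignments are not given in the sources used here. Symbols and coordinates come from GENCODE M21 (GRCm38), which holds 99.12% of the IDs, so they may differ from the build used for counting. Sequences are GENCODE M21 transcripts.

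Counts were tested with edgeR 4.0.16 (R 4.3.3): filterByExpr with a minimum count of 10, TMM scaling, quasi-likelihood F-test of smoke against air without covariates, Benjamini-Hochberg adjustment over 10159 genes and a threshold of 0.05. The SE is the fold change over the root of F. CPM values use TMM-scaled totals, and a log2 ratio used a pseudocount of 1. Permutation tests drew 100000 resamples. On simulated counts of this comparison with 200 changed genes among 10159, 99% of 2-fold and 76% of 1.5-fold changes were recovered, and 175 of 181 called genes were changed ones. A separate simulation with no changed gene gave 0 calls. Chi-square per gene over 133 pairs of samples within groups was 2.33 to 16.0, so no samples were merged. Groups and replicate numbers come from the titles. Alternatives used DESeq2 1.42.0, limma 3.58.1, other scalings, filters and depth, a replicate block and leaving out each sample. Nuclear copies were searched with blastn among annotated transcripts, because no genome sequence was used here; that search and a minimum of 50 aligned bases were chosen after seeing the data.

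Members, lists and the ratio of mt-Ti to mt-Nd1 were chosen with earlier results of these data known. Named were all mitochondrial rows with reads, the nuclear copies, called genes of the 3 lists, and Tfam, Polrmt, Lrpprc, Slirp and Iars2. Tars2 and the markers were named after their values were seen. Of the 3 lists, Prorp was not matched in the table. A planned pair, mt-Co3 with mt-Cytb, was left out because mt-Co3 had no reads. The result of 1 further marker list is not reported here.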

Additional observations from a re-analysis of the deposited data

How the results depend on the processing

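Of 192 comparisons of the 18 fold changes with settings other than leaving out a sample, 189 kept direction and side of the threshold. The exceptions were mt-Tm scaled to the mitochondrial mRNA total (−0.41, edgeR adjusted p = 0.0973), mt-Tl1 under DESeq2 (−0.36, adjusted p = 0.0305) and mt-Nd4, which turned to 0.0038 under the mRNA scaling; the cause was not tested. The count of called tRNA rows, 2 in the main analysis, was 1 under the mRNA scaling, with a minimum count of 20 and after thinning (in the last pair of settings mt-Ti was not tested, by their construction). DESeq2 called 323 genes in all, against 195, and 1 gene of the tRNA modification and charging list. mt-Ti has no adjusted p under DESeq2, mt-Cytb no value without the 10 most abundant rows, and mt-Te and mt-Tv none with a minimum count of 20.

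Leaving out each of 24 samples gave 141 to 254 called genes, 2 to 3 tRNA rows (mt-Tl1 was the third), 0 to 0 mRNA rows and 0 to 1 gene of the charging list (Gatb, at −0.47 without smoke replicate 3). Fold changes ranged from 1.11 to 1.29 for mt-Ti, −0.49 to −0.36 for mt-Tm, −0.022 to 0.044 for mt-Nd1, −0.012 to 0.080 for mt-Rnr2 and −0.00049 to 0.24 for mt-Ta, the last 3 crossing 0. The log2 ratio of mt-Ti to mt-Nd1 ranged from 1.03 to 1.25. Without the 10 most abundant rows, tRNA rows took 0.0267% of counts in air and 0.0241% in smoke, and rRNA rows 1.050% and 1.08%. That setting also takes mt-Cytb out of the mitochondrial sums, so its shares of the other mRNA rows (2.10% in air, 2.11% in smoke) and of the other mitochondrial rows together (3.18% and 3.21%) cannot be set against the shares with mt-Cytb.

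Replicate numbers occur in both groups, but nothing ties the samples that share a number: deviations from the group means had a mean r of −0.0059 over 11 same-numbered pairs and 0.0011 over 132 others, and 2 of 11 air samples correlated best with their own number. With the replicate block over 22 samples, 138 genes were called, with mt-Ti at 1.13 (edgeR adjusted p = 0.0313, range over 32 alternatives 0.00106 to 0.0313) and mt-Tm at −0.42 (edgeR adjusted p = 0.0381). The range for mt-Ti leaves out the settings where it was not tested or had no adjusted p. In the main fit mt-Ti met the low-count filter through the smoke samples, so this range is given as a description. The log2 ratio of mt-Ti to mt-Nd1 under the block was 1.07. For rows under the filter, depth limits what can be seen: 3 counts correspond to 0.662 to 1.19 CPM of the raw library totals.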
